A study of Schizosaccharomyces pombe with 2 samples.

Results

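The genes described here are 9 meiotic genes of fission yeast (Schizosaccharomyces pombe) that are kept silent while cells grow: mei2, mei4, ssm4, mcp7, rec8, spo5, crs1, num1 (also called mcp5) and mug8. They were taken by name, and their places in the genome decided which parts of a contact map were read. They overlap 11 bins of 10 kb, because rec8 and num1 each cross from one bin into the next. All 11 bins have values, out of 1218 bins with values and 1068 bins in the chromosome arms. The arm bins leave out the outer 200 kb of each chromosome and the 100 kb on either side of each centromere. Of the genes, 4 (mei2, ssm4, mcp7 and mug8) lie on chromosome I and the others on chromosome II.

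The map comes from Hi-C, in which fixed chromatin is cut (here with HindIII) and religated, so that sequenced joins count how often 2 loci lay near each other. The series has 2 samples, both of the strain sap1-1, which carries a mutant allele of the gene for the essential DNA-binding protein Sap1. They were logarithmic cultures in rich medium, grown at 26 °C and moved to 33 °C for 6 hours before fixation. There is 1 group, no other strain and 1 deposited map, whose header is tagged R1 and which may therefore hold the first sample alone, so no value below is a difference between strains or has a replicate error, and no test was made. The genes act in meiosis, these cells were growing, and no RNA was measured.

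Entry into meiosis in fission yeast turns on the RNA-binding protein Mei2, which the kinase Pat1 holds inactive during growth. Many meiotic genes are transcribed at a low level in growing cells, and their RNA is caught by the YTH-domain protein Mmi1 and passed to the nuclear exosome. Mmi1 binds copies of the hexamer UUAAAC in a stretch of the RNA called the determinant of selective removal (DSR). At meiosis Mei2 and the non-coding RNA made from sme2 take Mmi1 out of action, and transcripts such as those of mei4, ssm4 and rec8 persist. Some of these loci, mei4 and ssm4 among them, are known in growing cells as small islands of histone H3 lysine 9 methylation.

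The hexamer is what most of these genes share in sequence, and a stretch is shown for the 5 members with the most copies per kb, taken where copies in coding sequence cluster. Each stretch lies within 1 coding exon, is written 5′ to 3′ on the gene's own strand, and has the hexamer TTAAAC in capitals.
crs1, chrII:3452927-3453019 (- strand): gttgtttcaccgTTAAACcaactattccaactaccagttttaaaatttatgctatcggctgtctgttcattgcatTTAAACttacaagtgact
ssm4, chrI:4535160-4535281 (- strand): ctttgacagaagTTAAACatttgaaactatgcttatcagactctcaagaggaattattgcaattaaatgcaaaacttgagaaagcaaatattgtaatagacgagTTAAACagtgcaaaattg
rec8, chrII:2570731-2570798 (+ strand): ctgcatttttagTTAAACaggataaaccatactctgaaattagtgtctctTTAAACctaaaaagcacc
mei4, chrII:1473905-1473950 (+ strand): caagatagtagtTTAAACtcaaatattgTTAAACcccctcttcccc
num1, chrII:899602-899724 (+ strand): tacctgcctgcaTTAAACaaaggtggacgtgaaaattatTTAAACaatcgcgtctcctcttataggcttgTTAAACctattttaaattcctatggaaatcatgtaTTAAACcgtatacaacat
These bases were read from the RefSeq genome ASM294v3, whose 3 chromosomes are as long as those of the map. The num1 stretch holds 4 copies and each of the others holds 2.

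Counted on the sense strand from gene start to gene end, crs1, a meiosis-specific cyclin-like gene, had 5 copies in 1194 bases, or 4.19 per kb. That made it the 9th densest of 5113 protein-coding genes. The gene ssm4, for a dynactin-type protein that moves the nucleus in meiotic prophase, had 6 copies (2.91 per kb), and rec8, the meiotic cohesin subunit, had 5 (2.43 per kb). The forkhead transcription factor gene mei4 had 5 (2.25 per kb). The gene num1, whose product anchors dynein at the cell cortex, had 7, and mcp7, whose product works with Meu13 in meiotic recombination, had 3. The RNA-binding protein gene spo5, needed for the second division and for spores, had 3, as did mug8, a meiotically upregulated gene. In all, 8 of the 9 genes held 3 or more copies, against 7.67% of all protein-coding genes, and 6 reached 2 per kb, against 2.29%. Genes whose RNA Mmi1 removes, such as mei4, ssm4 and rec8, are likely to hold the hexamer through that choice. These shares are therefore a description of the genes chosen. The members had 37 copies on the sense strand and 10 on the other strand. The same split over all genes is not reported here, so it is not shown to be particular to the members. The copies in mcp7 lie in untranslated parts of the gene, 2 in the 5′ UTR and 1 in the 3′ UTR, while those of ssm4, crs1 and mug8 all lie in coding exons. A match is a run of letters and not a measured binding site.

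**Figure D1:**
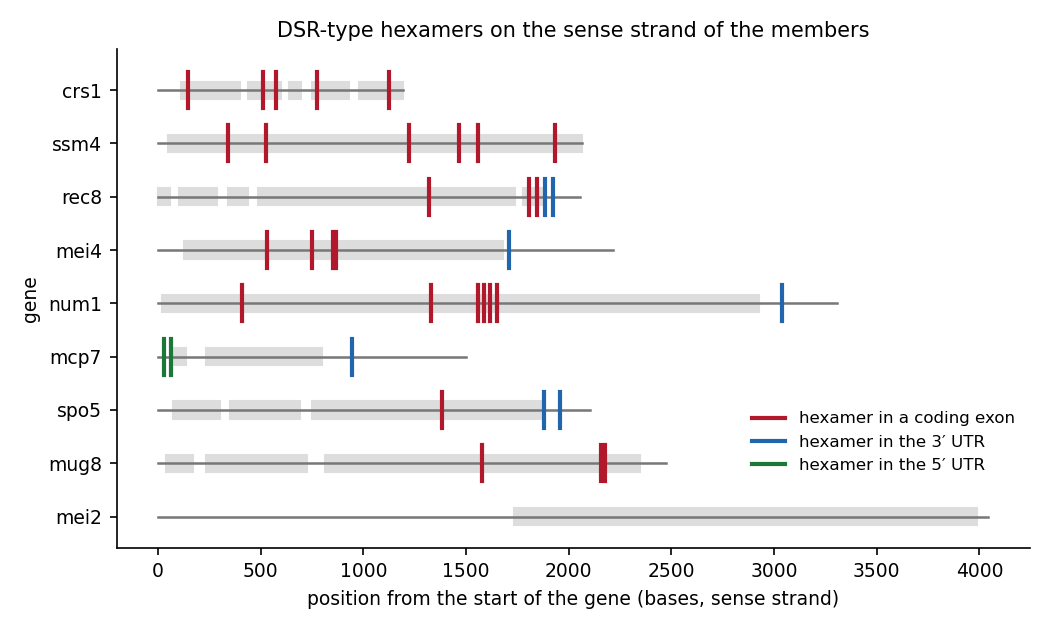
Copies of the hexamer (vertical bars, coloured by annotation) along the 9 genes, with the position in bases from the gene start on the x axis and coding exons as grey boxes. crs1 holds 5 copies in a short gene, num1 holds 7, and mei2 at the bottom holds 0.

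The exception was mei2, with 0 copies on its sense strand. Its upstream stretch instead held 2 copies of TTCTTTGTT, letters of the TR box that the starvation factor Ste11 binds, on the gene's own strand. They begin 160 and 138 bases before the annotated gene start and are shown in capitals because mei2 is a textbook target of Ste11.
mei2, chrI:4515143-4515197 (- strand): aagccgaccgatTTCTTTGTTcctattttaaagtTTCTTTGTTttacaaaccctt
This stretch overlaps the non-coding RNA gene SPNCRNA.993. Of the 500-base upstream stretches of all 5112 genes that have a full one, 2.84% held the TR box letters on either strand, and 0.254% held 2 or more. No other member had one. The letters GTAAACA, of the FLEX element bound by forkhead factors such as Mei4, were upstream of mei4 itself (1 copy, antisense) and of spo5 (1 copy, sense), against 24.4% of all upstream stretches.

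The member bins were read about as deeply as other arm bins, with spo5 the shallowest and the second rec8 bin the deepest. The map held 37526864 reads, recovered from the corrected values, and the 11 bins had 35335 to 83322 reads each, with a median of 58055, against a median of 59437 over all arm bins. Their GC content was 34.0 to 37.2% and they held 2 to 11 HindIII sites, with medians of 36.0% and 5, against 36.1% and 5 over all arm bins. Of the 11 bins, 9 held a convergent gene pair, as did 83.1% of arm bins. A pair of bins on different chromosomes had a median of 11 reads, so sums over windows are firmer than single pairs. The ranges in brackets and the bars in plots are 95% exact Poisson intervals of summed reads. They describe counting error alone, not the error of the neighbours a value is divided by, and so may be too narrow.

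The members did not share one behaviour towards chromosome ends. Contact with the ends of chromosomes I or II, whichever the gene is not on, was divided by the running median of the bins within 100 kb on the same arm. The 11 bins had a median fold of 1.00 (0.591 to 2.34, SD of the log2 fold 0.57), against 0.991 over all arm bins. At 1.5-fold or more were 2 of the 11 bins, where 5.99% of arm bins reached it, and 1 bin reached 2-fold, where 1.22% did. At the inverse of 1.5 or less were also 2 bins, where 4.31% of arm bins were as low. The high bins were those of mei2 and the second of num1, and the low ones those of mug8 and mei4. The members had been proposed with the mei2 value known, so its fold is a description.

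**Figure D2:**
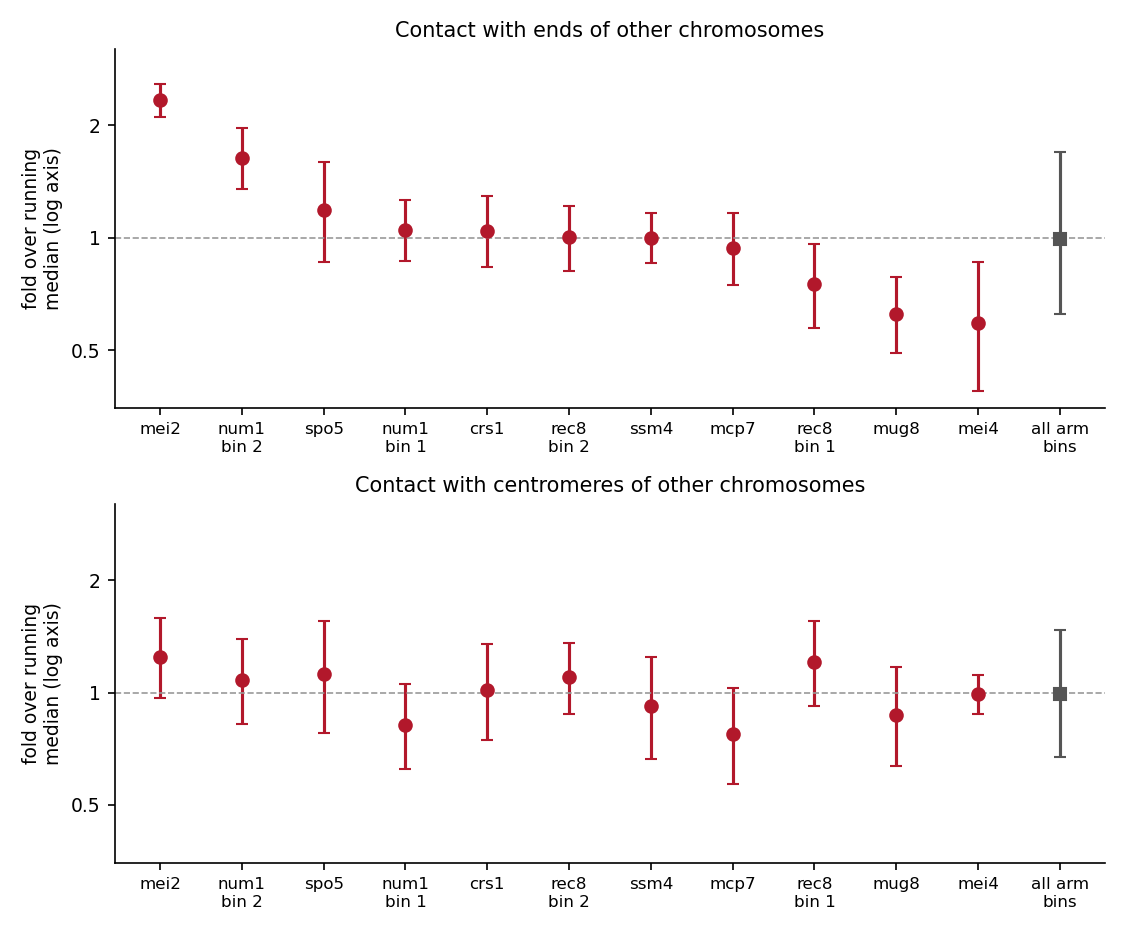
Contact with ends (top) and centromeres (bottom) of other chromosomes as fold over the running median on a log axis, for the 11 member bins in the order of their contact with ends, with 95% Poisson intervals. The grey square and bar give the median and the middle 95% of 1068 arm bins. With the ends mei2 stands at 2.34, and mei4 is lowest at 0.591, whereas all members lie between 0.773 and 1.24 with the centromeres.

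The mei2 gene (chrI:4510983-4515025, minus strand) lies 1064 kb from the right end of I and 744 kb from the centromere, in bin 4510001 together with omt2, apc14 and etf1. It met the ends of II at 2.34-fold (2.11 to 2.59) with 376 reads, rank 8 of 1068 arm bins. Both ends of II took part. With the left end of II the fold was 2.09 (1.81 to 2.41, 190 reads), and with the right end it was 2.72 (2.34 to 3.14, 186 reads). The ends of III, which border ribosomal DNA, gave 0.819 (0.557 to 1.16) and 1.19 (0.820 to 1.67). The excess was thus seen with both ends of II, while the intervals for the ends of III include 1.

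The excess faded within 200 kb of the ends of II. Against bins 50 to 100 kb from the left end of II mei2 had 2.20-fold contact, against bins 100 to 150 kb away 1.50, and against those 200 to 300 kb away 1.03. For the right end the same distances gave 2.39, 1.36 and 1.02. The bins nearest the ends, under 50 kb, gave 2.25 on the left from 42 reads and 3.68 on the right from 16 reads (2.11 to 5.98), where 1 bin had values.

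The ends of chromosome I itself were met in excess too. Set against arm pairs at the same separation on that chromosome, mei2 met the left end of I, across the centromere, at 5.24-fold (4.70 to 5.83, 336 reads). It met the right end, on its own arm, at 2.66-fold (2.33 to 3.03, 231 reads). All arm bins of I had medians of 0.959 for the left end and 0.538 for the right. The measure by separation was high over a wide stretch around mei2, so the running median of its neighbours gave smaller folds, 2.38 for the left end and 1.71 for the right. Reads without the correction gave 3.92 and 1.99 by separation. All 4 ends of I and II therefore met mei2 above its neighbours, by 1.71 to 2.72-fold.

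**Figure D3:**
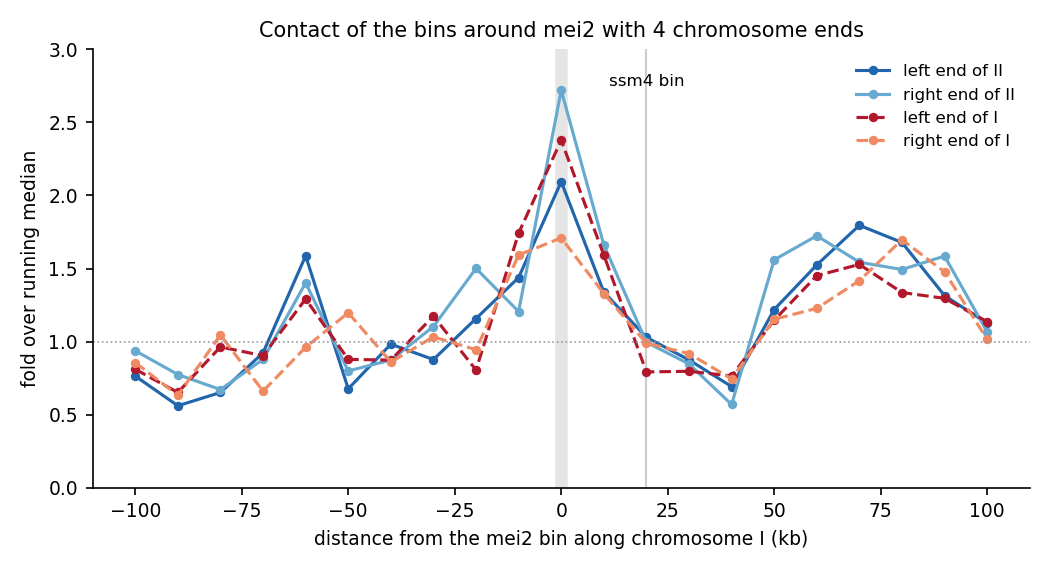
Fold over the running median for contact of the bins within 100 kb of mei2 with the 2 ends of II (solid lines) and the 2 ends of its own chromosome I (dashed lines), by distance from the mei2 bin in kb. All 4 lines are highest at mei2 (1.71 to 2.72), though that for the right end of I is at 1.70 again 80 kb away, and the bin of ssm4, 20 kb away, lies at 0.793 to 1.03.

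The peak at mei2 was narrow. The bins on either side, 4500001 with ric1 and ckb1 and 4520001 with mtl16 and smd1, had 1.35 and 1.44-fold contact with the ends of II. The bin of ssm4 (chrI:4534674-4536736, minus strand), only 22.7 kb from mei2, had 0.999 (0.855 to 1.16, 170 reads). At 40 kb the fold was 0.642, and a second, broader rise of 1.57, 1.67 and 1.58 followed at 60, 70 and 80 kb. So 2 members that lie close together differed, mei2 being high against its surroundings and ssm4 level with them. With a running median over 200 kb on each side both were higher, mei2 at 4.15 and ssm4 at 2.04. Once the 5% of bins with fewest reads were left out, mei2 was at 1.83. By separation ssm4 also met the ends of I, at 2.21 on the left and 1.69 on the right, but over its neighbours it was at 0.793 and 0.989. The bin of mei2 shared 0 of its 9971 30-base words with the end windows, and so did every other member bin.

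The 2 bins of num1 (chrII:898056-901363) differed in contact with the ends of I in the corrected values, though not in reads without the correction. The bin with the end of the gene, 900001, also holds rad3, mxr2 and swi1, and had 1.64-fold contact (1.35 to 1.96, 116 reads, rank 37). The bin with the start of the gene, 890001, with erg1 and psy2, had 1.05 (0.866 to 1.26, 115 reads). In bin 900001 the left end of I gave 2.12 (1.67 to 2.65, 77 reads) and the right end 1.29 (0.916 to 1.76, 39 reads), and their intervals meet. Within the left end it was 1.83 at 50 to 100 kb and 0.975 at 200 to 300 kb. With its own ends bin 900001 had 2.06 (1.74 to 2.43, left) and 1.37 (1.08 to 1.72, right) by separation, and 1.75 and 2.07 over its neighbours. Bin 890001 had 1.78 (1.53 to 2.05) by separation and 1.52 over its neighbours with the left end of II. The fold of bin 900001 with the ends of I fell to 1.29 with the ends of III added and to 1.41 in reads without the correction, both under 1.5. In those reads bin 890001 was at 1.45, no lower than bin 900001. Against bins 50 to 100 kb from the right end of I, bin 890001 had 1.67 and bin 900001 had 1.46.

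The low bins were mei4 and mug8. The gene mei4 (chrII:1473068-1475285) lies 147 kb from the centromere of II, beside act1 and cdk9, and had 0.591-fold contact with the ends of I (0.390 to 0.860, 27 reads, rank 1052 of 1068). The left end of I gave 0.553 (0.276 to 0.989, 11 reads) and the right 0.626 (0.358 to 1.02, 16 reads), the second of which includes 1. With its own left end it had 0.497 by separation and 0.589 over its neighbours, but with its own right end 0.612 and 1.55. The right end of II was thus low by one measure and high by the other. The fold with the ends of I stayed at or under 0.667 in 4 of 7 alternatives, and was 0.829 once the 5% of bins with fewest reads were left out and 0.818 with the ends of III added.

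The gene mug8 (chrI:2445242-2447714) shares its bin with cpc2, tif212 and meu26, and had 0.625-fold contact with the ends of II (0.490 to 0.786, 73 reads, rank 1041). The right end of II gave 0.417 (0.282 to 0.596, 30 reads) and the left 0.791 (0.572 to 1.06, 43 reads). It also lay under its neighbours with its own ends, at 0.492 and 0.697. The bins at 10 kb on both sides had 0.620 and 0.725, so mug8 was not low alone. Every bin within 30 kb was below 1, with 0.965 at 30 kb to the left and 0.775 at 30 kb to the right. The neighbours of mei4 had 0.939 and 0.916. The fold of mug8 stayed at or under 0.667 in 3 of 7 alternatives and reached 0.745 with the ends of III added.

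The remaining members lay near their surroundings. With the ends of other chromosomes spo5 (chrII:2536150-2538254) had 1.19 (0.862 to 1.59), crs1 (chrII:3452323-3453516, minus strand) 1.05 and mcp7 (chrI:578450-579948) 0.940. The 2 bins of rec8 (chrII:2568938-2570993) had 0.750 (0.574 to 0.963, 61 reads) and 1.00 (0.814 to 1.22, 99 reads). In order of fold, neighbours from spo5 down to mcp7 had overlapping intervals, and only mei2 and the second bin of num1 had intervals wholly above 1. The intervals of the first rec8 bin, mug8 and mei4 lay wholly below 1. In reads without the correction spo5, the member bin with the fewest reads, was at 0.693, and without the low-read bins the first rec8 bin was at 1.03.

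Over the 22 pairs of a member bin with an end of its own chromosome, the median fold by separation was 0.882, against 0.813 over all arm bins. Reaching 2-fold were 4 of the 22, where 4.61% of arm pairs did: both ends with mei2 and the left ends with ssm4 and the second bin of num1. Over the running median 6 of the 22 reached 1.5, where 6.13% of all did, namely 2 with mei2, 3 with num1 and the right end with mei4. Both counts are descriptions, since the members were proposed with the mei2 value known. The ssm4 bin lies in the stretch around mei2 that was high by separation, and the 2 num1 bins adjoin. The gene mcp7 was low with the far end of I, at 0.247 by separation (0.169 to 0.349, 32 reads), and at 0.571 over its neighbours.

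Summed over the centromeres of other chromosomes, the member bins stayed near their surroundings. With the centromeres of other chromosomes the 11 bins had a median of 1.02-fold (0.773 to 1.24, SD of the log2 fold 0.23), against 0.989 over all arm bins. At 1.5 or more were 0 bins, where 2.15% of arm bins were, and at the inverse of 1.5 or less were 0, where 2.43% were. The highest was mei2 at 1.24 (0.965 to 1.58, 67 reads), made of 1.32 with centromere II and 0.801 with centromere III. The lowest was mcp7 at 0.773 (0.568 to 1.03, 47 reads). Of single centromeres, the first rec8 bin met that of III at 1.61 (1.09 to 2.28, 31 reads), and mug8 met it at 0.436 from 8 reads (0.188 to 0.859). With centromere II ssm4 had 0.637 (0.408 to 0.948, 24 reads) and mcp7 0.653 (0.437 to 0.938, 29 reads). The gene mei4, nearest a centromere of the members, had 0.989 (0.876 to 1.11, 280 reads).

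With the centromere of their own chromosome the members had a median of 0.429 by separation, against 0.433 over all arm bins, and 1.02 over their neighbours, against 0.996. The highest by separation was mei4 at 0.786 (0.734 to 0.841, 848 reads) and the lowest mug8 at 0.312 (0.217 to 0.433, 35 reads). Over their neighbours these were 0.934 and 0.891.

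The members met each other about as much as other arm bins do. The 20 pairs of genes on different chromosomes had a median of 0.962 times the contact expected from their distances to the centromeres (mean 1.05 ± 0.45, SD over pairs), with 8 above 1, against a median of 0.970 over all 355211 arm pairs. The 16 pairs on 1 chromosome had a median of 0.963 times the contact at their separation (0.714 to 1.33), with 7 above 1, against 0.972 over all such arm pairs. At 2-fold or more were 2 of the 20 pairs on different chromosomes, where 1.02% of all such pairs were, and 0 of the 16 on the same chromosome, where 0.408% were.

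**Figure D4:**
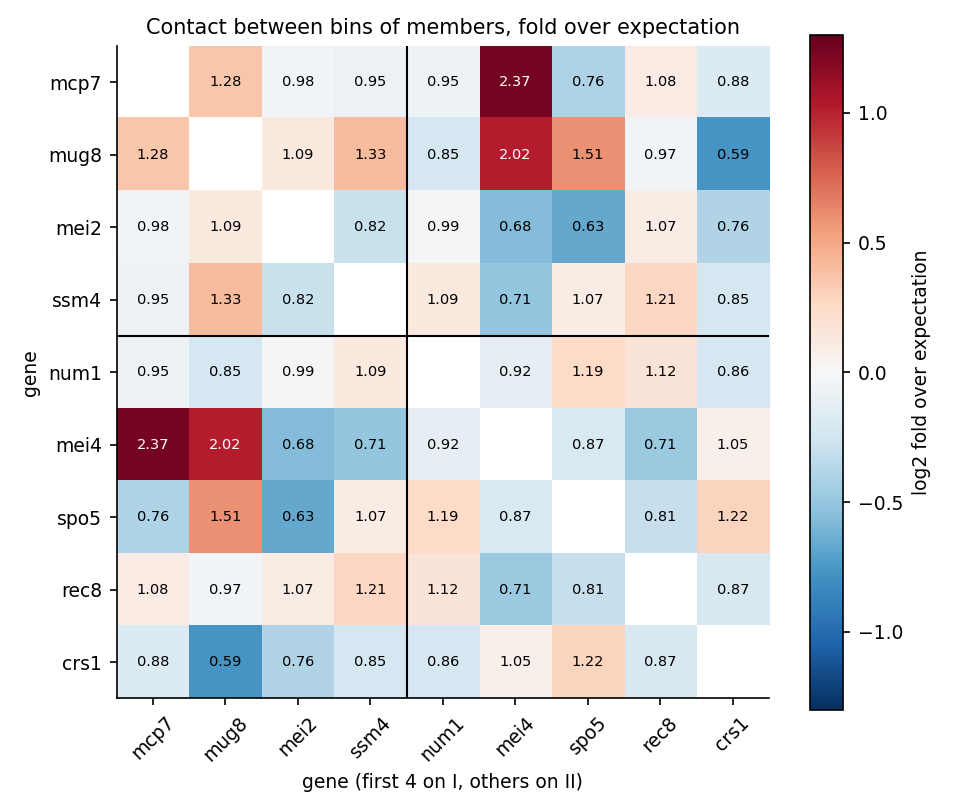
Contact between the bins of each pair of members as fold over expectation (numbers in cells, colour on a log2 scale), with chromosome I genes in the first 4 rows and columns and chromosome II genes in the rest. Most cells lie near 1; mei4 with mcp7 (2.37) and with mug8 (2.02) are highest, and crs1 with mug8 (0.586) is lowest.

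Both high pairs involve mei4. It met mcp7 at 2.37-fold (1.29 to 3.97) with 14 reads where 5.92 were expected, and mug8 at 2.02-fold (1.13 to 3.33) with 15 reads where 7.42 were expected. Over 3 by 3 bins these fell to 1.66 and 1.24, and in reads without the correction they were 2.15 and 1.76. The mei4 bin shared 0 30-base words with the bins of mcp7 and mug8. From mcp7's side the arm bin of another chromosome with the highest ratio was the one beside mei4, with git5 and omh5, at 3.26-fold (1.93 to 5.15, 18 reads), and the mei4 bin came next, out of 555. These rest on few reads and were read off many pairs.

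The 2 close pairs are the best counted, and both were below expectation. The pair mei2 and ssm4 had 0.819 times the contact of arm pairs at their separation (0.780 to 0.859, 1658 reads). The pair rec8 and spo5, 32.8 kb apart, had 0.812 (0.775 to 0.849, 1877 reads). These intervals hold counting error alone. Over arm pairs at all separations on 1 chromosome the SD of the fold was 0.298. The spread at these short separations is not reported here, so how common such values are was not tested. The mei2 and ssm4 pair was at 0.873 over 3 by 3 bins and 0.618 in reads without the correction. Far pairs on 1 chromosome had wide intervals, such as mcp7 with mug8 at 1.28 (0.804 to 1.94, 22 reads).

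By the rule of the highest ratio among arm bins of other chromosomes, mei2 met most strongly 2 adjoining bins of II, the one with rad13 and fma1 at 3.14-fold (2.17 to 4.38, 34 reads) and the one with ric8 and mic60 at 2.70 (1.92 to 3.70, 39 reads), out of 567. These bins are themselves high with the ends of I, at 2.94 and 3.54. Of the 11 arm bins of II at 2-fold or more with the ends, mei2 met 6 above expectation and 4 at 1.5 or more, with a median of 1.08, against a median of 0.868 over all 575 arm bins of other chromosomes, of which 5.91% were at 1.5 or more. The bin of the mating-type gene mat3-Mc, highest of all arm bins with the ends at 6.68, met mei2 at 0.693 (0.278 to 1.43, 7 reads). High contact with the ends did not come with high contact with mei2 in every bin, and this set was picked after its values were seen.

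The other members had their highest partners elsewhere. The gene mei4 met the bins of III with nnr2 and spt3 (3.57, 99 reads) and with gpi8 and cbl1 (3.39, 79 reads). Those of ssm4 were the bin with rng9 and pop7 (2.60, 17 reads) and, as for mei2, that of rad13 and fma1 (2.47, 22 reads). The bin with sec74 and pnn1 led for spo5 (2.79) and that with fbh1 and cdh1 for mug8 (2.37). For the first and second bins of rec8, the leading bins were those of toe3 (2.01) and of smp4 and ure7 (1.83), for crs1 that of ahk1 and atg11 (2.05), and for num1 those of fur4 and uck2 (1.88) and of mug42 and svf1 (2.52). No further member appeared among these partners, apart from mei4 for mcp7. Each is the top of 555 to 671 bins, so a high value is set by the choice.

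The bin most like each member in its contacts with other chromosomes, at least 500 kb away on the same chromosome, was also found. The measure was Pearson's r of log2 ratios to expectation over 50 kb blocks, 117 for genes on I and 138 for those on II. For mei2 it was the bin of sck1 and mus7 (r = 0.42), for ssm4 that of sty1 and rcn1 (0.42) and for mei4 that of ntu1 and fkh2 (0.43). For both the second rec8 bin (0.50) and spo5 (0.38), which lie 40 kb apart, it was the bin of lam2 and spo6. The gene spo6 is needed for the second meiotic division. No other member bin had this bin as its match. The highest r of a member was that of the first num1 bin with apl3 and drp1 (0.52). Each of these is the highest r of 293 to 407 bins looked at, so a high value is set by the choice. For mei2, bins within 20 kb had a median r of 0.59 and bins far away 0.07. For the second rec8 bin these were 0.21 and 0.14, and for spo5 0.35 and 0.06. The points share 1 library and its correction.

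Insulation, the log2 of the mean contact between the 50 kb on either side of a bin over the mean of all bins, had a median of 0.02 at the members (-0.34 to 0.17), against -0.02 over all arm bins. Boundaries, meaning minima at least 0.1 below the higher flanking maximum, coincided with 2 of the 11 bins, where 17.3% of arm bins are boundaries. These were the bins of mei4, at -0.34 and 0.39 below its higher flank, and mug8, at -0.30 and 0.38 below. Both are also the bins low with the ends of other chromosomes. The bin of mei2 was at 0.02, on a slope between -0.38 at 90 kb to its left and 0.14 at 30 kb to its right, and was no boundary. The scores of mcp7 and spo5 were both 0.17, above the arm median. With a square of 100 kb mug8 was at -0.06, still a boundary, and in reads without the correction 5 member bins were boundaries, as were 28.7% of arm bins.

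**Figure D5:**
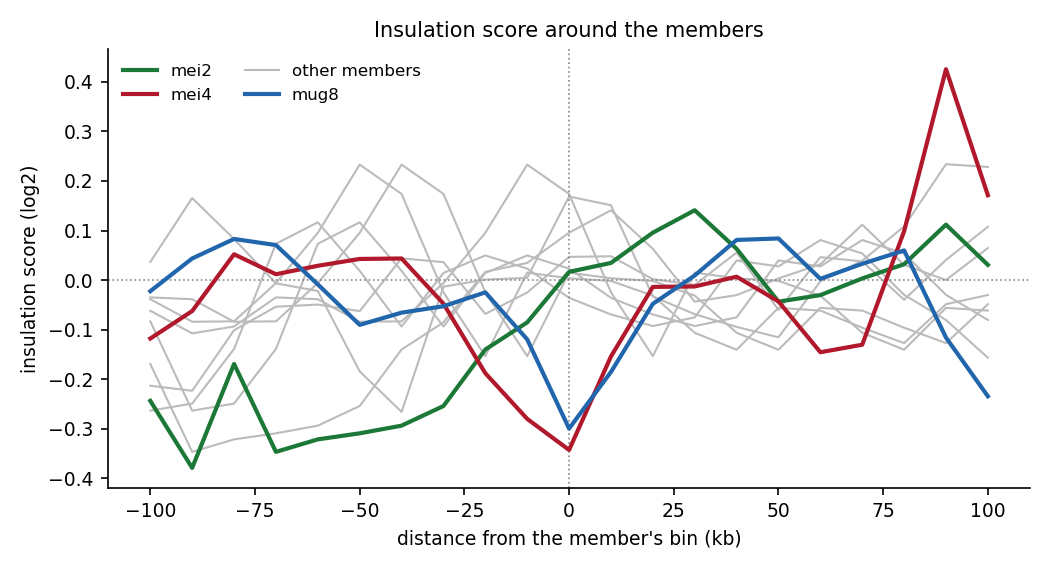
Insulation score (log2) by distance in kb from each member's bin, for mei4, mug8, mei2 and the other members in grey. mei4 (-0.34) and mug8 (-0.30) sit at minima, and mei2 (0.02) lies on a rising slope.

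Other genes of the meiotic programme, in lists by role, did not share the position of mei2. Over all arm bins the median with the ends was 0.991, with 5.99% at 1.5 or more and 4.31% at the inverse or less. In the list for entry and the switch to meiosis, which holds the master regulator ste11 and the kinase gene pka1, 9 arm bins had a median of 1.03-fold with the ends of other chromosomes, 2 of them at 1.5 or more. These were a bin of sme2 at 1.62 (1.42 to 1.83, 256 reads) and that of rep1, a transcription activator of premeiotic DNA synthesis genes, at 1.51 (1.26 to 1.81, 124 reads). The genes of RNA elimination, among them mmi1, red1 and rrp6, had a median of 0.919 over 21 bins, with 0 at 1.5 or more and 1 low, that of erh1 at 0.664 (0.434 to 0.973), whose product partners Mmi1. The list for recombination and pairing had 0.985 over 24 bins, with 2 high, tht2 at 1.59 and rec15, a gene of double-strand break formation, at 1.70. The rec15 bin (2160001 of II) adjoins that of atg2402 and npl4, at 2.48 with the ends, and lies near the mating-type bins without touching them. The list for divisions and spores had 0.956 over 22 bins, with 0 high and 1 low, that of meu26, which is also the mug8 bin. With the centromeres the 4 medians were 0.979, 0.990, 0.999 and 0.961, against 0.989 over all arm bins.

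Since the RNA of sme2 works with Mei2 protein, the contact of the 2 loci was read as well. The mei2 bin met the first sme2 bin (330001 of II) at 1.89-fold (1.14 to 2.95, 19 reads) and the next (340001) at 1.09 (0.598 to 1.84, 14 reads). The first of these is also the one with more contact with the ends, at 1.62 against 1.16 for the second. Nearby, the bin of arg7 and dal52 (310001), at 2.24 with the ends, met mei2 at 1.85 (1.17 to 2.77, 23 reads), so the value was not particular to sme2. Of all arm bins of other chromosomes, 5.91% met mei2 at 1.5 or more. The share of the ends in the sme2 value was not tested.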

How the data were processed

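The series holds 1 deposited map, in which the signal for 2 bins of 10 kb is their contact as the authors left it after iterative correction. The submitters' processing notes name Bowtie2 2.1.0 and the build ASM294v2. Both samples are of 1 group. The map's header is tagged R1, and whether it pools the samples is not stated in the sources used here. Of 1258 bins, 40 are blank. The bins sum to 57251.422 to 57251.495 each. Read numbers were recovered by finding a factor per bin that makes the values whole, and 100% came within 0.05 of a whole number, making 99.9% of the 37571192 reads in the file header.

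Genes and sequence came from RefSeq ASM294v3, whose chromosome lengths equal the map's. The centromere midpoint of a chromosome was the centre of its gene-free stretch. End windows were the outermost 5 bins with values, and centromere windows the bins within 50 kb of the midpoint. Pairs of loci on different chromosomes were set against the mean of pairs whose distances to their centromeres fell in equal classes 100 kb wide. Pairs on 1 chromosome were set against pairs of that chromosome at the same separation. For separations of 100 kb or more this took in pairs within 50 kb of the separation. In both cases pairs on the same arm and pairs across the centromere were kept apart. With 1 map no test was made, and shares over all arm bins are given with the counts of member bins. Genes beyond the members were named by 3 rules: list genes at 1.5 or more or 0.667 or less with the ends, the 2 highest partners of each member bin with at least 5 reads expected, and the bin most like each. Any other gene was chosen once its values had been seen. The members, lists and rules were chosen with earlier results of these data known. The steps were tested on simulated data. Python 3.11.15, NumPy 2.4.6, SciPy 1.17.1 and matplotlib 3.10.9 were used.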

Additional observations from a re-analysis of the deposited data

How the results depend on the processing

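Of 218 values recomputed under alternatives, 176 stayed within their limit: 1.5 times for a count, 1 SD over the bins or pairs behind a median, 1 SD over arm bins for an insulation score and the counting interval for the contact of 1 bin. The bins called high or low with the ends of other chromosomes all stayed on their side of 1. Folds with ends of the own chromosome did not always do so. The fold of ssm4 with its left end was 2.21 by separation and 0.793 over its neighbours. That of mei4 with its right end was 0.612 by separation and 1.55 over its neighbours. Member bins at 1.5-fold or more with the ends of other chromosomes were 2, and 1, that of mei2, both in reads without the correction (7.96% of arm bins) and with the ends of III added (2.06%). With centromere windows of 20 kb the members' median log2 fold with other centromeres was 0.51 and 3 bins reached 1.5, as did 29.1% of arm bins. Those windows hold few reads, and ssm4, mcp7 and the second rec8 bin were at 0 there. A fold of 0 has no log2 value, so these bins are not among the 218 values for that setting, though they moved furthest. With a running median over 200 kb 1 bin reached 1.5 with the centromeres, that of mei4 (4.78% of arm bins). The median log2 fold with the own centromere was -1.22 by separation and 0.035 over the running median, which compares with bins at nearly the same distance. Gene pairs on different chromosomes at 2-fold or more were 2, but 1 in reads without the correction and 0 over 3 by 3 bins. Boundary bins were 2, but 5 in reads without the correction (28.7% of arm bins). Where no cause is given, the cause was not tested. Over 7 alternatives mei2 had 1.83 to 4.15-fold contact with the ends, mug8 0.557 to 0.745 and mei4 0.515 to 0.829. The 1 map gives no replicate error, and single pairs of bins hold too few reads for a firm value. No paired analysis was possible because the series has 1 group and 1 map.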
